A study of Mus musculus with 4 samples.

Results

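Colon from Pla2g3-/- mice given azoxymethane (AOM) was compared with colon from Pla2g3-/- mice given vehicle, each as 1 array, so that the comparison rests on 2 of the 4 arrays of the study. The arrays were chosen by their labels alone. The comparison was read over every named gene, of which 16519 of 22384 had a value by the rule given below. Each array was hybridized with RNA pooled from the colons of 3 to 5 male mice aged 42 weeks, from littermates of a C57BL/6 and 129 background at backcross generation 3, and both pools compared are labeled Pla2g3-/-, a deletion of the gene that is known from the labels. The AOM mice received 10 mg/kg once a week for 6 weeks and were killed 28 weeks after the last injection, and the vehicle mice received saline. The labels call the tissue of the AOM pools colorectal cancer, whereas the methods describe whole descending colon, so the share of tumor in the AOM RNA was not known. In pooled whole tissue, fewer cells of a type and less RNA per cell cannot be told apart.

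AOM is a carcinogen that is activated in the body to a DNA-methylating agent, and in rodents it gives rise to tumors of the distal colon, many of which carry an active Wnt pathway. PLA2G3 is a secreted phospholipase A2, an enzyme that releases a fatty acid from phospholipids and leaves a lysophospholipid behind. The colon wall holds an absorptive and mucus-secreting epithelium over a stroma of fibroblasts and immune cells, with smooth muscle and nerve plexuses outside it, and at the anal end it meets a stratified squamous epithelium.

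Signals are given on a scale on which the 75th percentile of each array is 1000, and every fold is a ratio of such signals. Between 64.8% and 69.4% of the 43020 spots of an array were well above background, no spot was saturated, and probes spotted more than once differed by a median SD of 0.057 to 0.066 on the log2 scale within an array. That SD covers spots of 1 array, and no value below has a replicate behind it. For a gene well above background on 1 of the 2 arrays, the dim side was set to the higher of its own signal and the lowest signal well above background on that array, and the fold is written as "at least". Where the signal on the other array did not exceed that level, no value was given.

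The targeted gene was checked first. Pla2g3 has 3 probes, and on the brightest the pool labeled Pla2g3-/- had a signal of 656 with vehicle, and that given AOM 1396. The pools labeled Pla2g3+/+ had 531 and 232. The Pla2g3-/- pools therefore carried signal at Pla2g3 probes, which was 2.13-fold higher after AOM on the brightest probe and 2.29-fold and 2.24-fold higher on the others. In the Pla2g3+/+ pools, the brightest probe was 2.29-fold and the second 2.75-fold lower after AOM, and the third was not above background with vehicle. The probes lie on chromosome 11 of mm9, and their first 30 of 60 bases are shown because they locate the signal on the transcript.
Pla2g3 probe at 3394109 to 3394168: aggagtaaatgaattaatcaacacacatac
Pla2g3 probe at 3393127 to 3393186: ctgcaagtaacccaggcaatctggagacgc
Pla2g3 probe at 3399294 to 3399353: aaatttcaggttgatgccctaaacatttct
Where the deletion lies relative to these bases is not given in the sources used here, so the probes may check nothing, and the pools are called Pla2g3-/- as labeled.

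Several other features of the 4 arrays bear on the comparison. Xist, the RNA that coats the inactive X chromosome in female cells, was not above background on either vehicle array, but its signal was 867 in the Pla2g3-/- AOM pool and 1144 in the Pla2g3+/+ AOM pool, although all pools are labeled male. Of 4 Y-linked genes, Ddx3y (566 with vehicle and 619 after AOM in Pla2g3-/-), Eif2s3y (3244 and 2669.5) and Uty (80.7 and 78.4) were above background on both arrays, and Kdm5d (40.3 with vehicle) was not above background after AOM. The Pla2g3-/- vehicle pool carried pancreatic and liver transcripts that the Pla2g3+/+ vehicle pool held at far lower signals, as described below. Over most genes the vehicle pools were close. Of 15473 genes above background on both vehicle arrays, 1.72% were past 2-fold between them, against 24.5% of 15489 genes between the AOM pools. That share takes in pancreatic and liver genes above background on both, but not genes such as Amy2a5 that were above it on 1. Reg3b, Reg3g and Mid1 also differed between the vehicle pools, as given below.

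AOM was accompanied by more and larger decreases than increases in Pla2g3-/- colon. After AOM 1593 of the 16519 genes (9.64%) had more than 2 times the signal and 2498 (15.1%) were over 2-fold lower, and 8023 lay within 1.5-fold. Beyond 10-fold, 32 genes were higher and 145 lower. The 145 include pancreatic and liver transcripts carried by the vehicle pool, such as Amy2a5 and all 10 major urinary protein genes with a value. Among those past 2-fold, 38.9% were higher, and this split depended on the scaling, since it was 48.5% after quantile normalization, 51.2% after normexp and quantile normalization, 53.4% after scaling over detected probes and 91.1% with no scaling. The median of all genes was -0.08 on the log2 scale, and it moved to 0.03, 0.03, 0.08 and 0.76 under these settings. In the Pla2g3+/+ pools, 2616 of 17284 genes (15.1%) were higher and 3874 (22.4%) lower by this threshold. The SD of the log2 ratios was 0.92 in Pla2g3-/- and 1.33 in Pla2g3+/+, and whether the genotypes differ in this cannot be tested with 1 array a group.

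**Figure D1:**
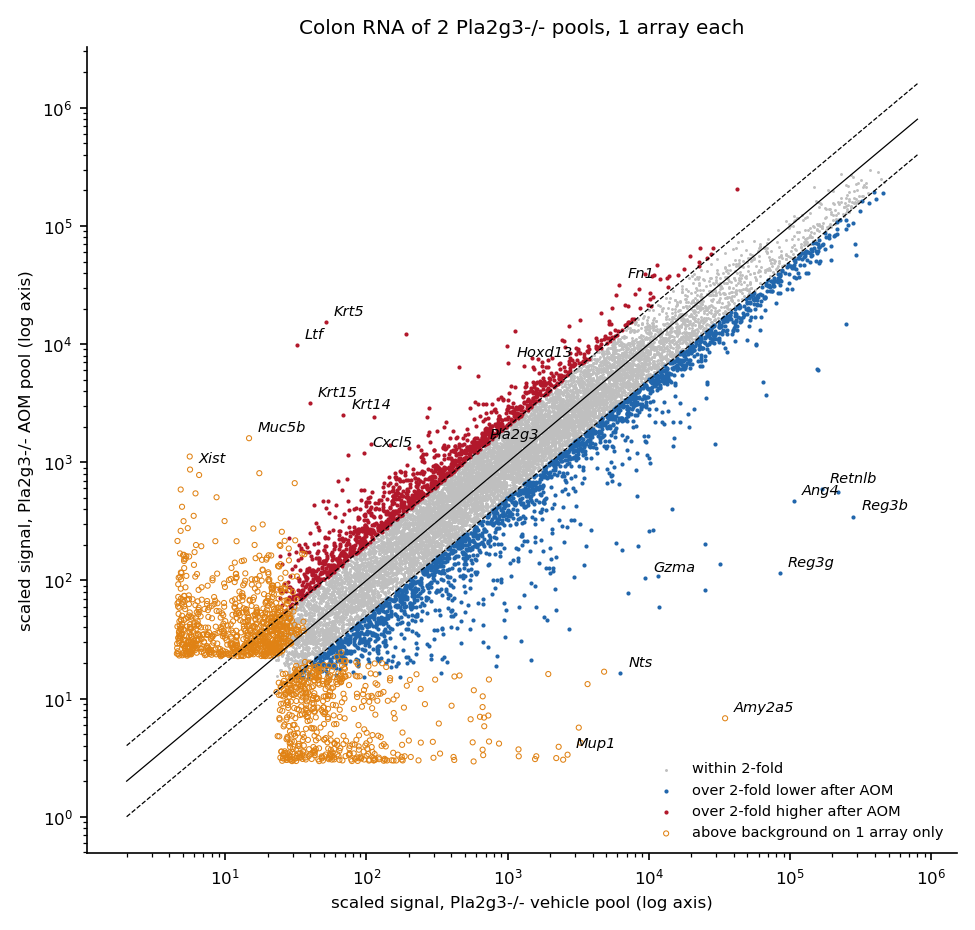
Signal of each named gene in the Pla2g3-/- vehicle pool (x axis) and the Pla2g3-/- AOM pool (y axis), both on log axes with the 75th percentile of each array at 1000. Red points (1312 genes) were over 2-fold higher after AOM and blue points (2059 genes) over 2-fold lower, among genes above background on both arrays. Open orange points were above background on 1 array only, and the dashed lines mark 2-fold. The blue tail of Reg3b, Reg3g, Retnlb and Ang4 reaches farther from the diagonal than most of the red points.

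The largest measured increases were led by Ltf and by keratins of the basal layer. Ltf, which encodes the iron-binding antimicrobial protein lactotransferrin, had a signal of 32.0 with vehicle and 9826 after AOM, and Krt5, a keratin of basal cells, 51.5 and 15273. They were 307-fold and 297-fold higher, although a second Krt5 probe was at 3.41 log2 against 8.21 on the brightest. In the Pla2g3+/+ pools Ltf reached 359 after AOM and Krt5 stayed at 56.1 and 26.6. Next came Krt15 (39.6 to 3168) and Krt14 (68.6 to 2493), keratins of the basal layer, and Mid1, a microtubule-associated ubiquitin ligase (191 to 12219.9), whose other probes, both dim, were at 0.94 and 1.86 log2. Mid1 stood at 1242 in the Pla2g3+/+ vehicle pool, well above its Pla2g3-/- counterpart, and against the mean of both vehicle arrays its log2 ratio was 4.65 in place of 6.00. Muc5b, a gel-forming mucin of glands, and Calml3, a calmodulin-like protein of stratified epithelium, were not above background with vehicle and reached 1598 and 1118 after AOM. Neither was above background on either Pla2g3+/+ array. Spaca4, a sperm membrane protein, was 21.2-fold higher and Zan, the sperm protein zonadhesin, went from 62.7 to 689, and in Pla2g3+/+ both were over 2-fold lower. Sh3bp1, a GTPase-activating protein, was 13.3-fold higher on its brightest probe, but its other probes were at 0.92 and -0.54 log2. The latent TGF-beta binding protein gene Ltbp2 was 15.6-fold higher, the protease gene Adamts15 14.1-fold higher, the peroxidase gene Lpo 11.4-fold higher, and Cxcl5, a neutrophil-attracting chemokine, 12.5-fold higher. Cxcl5 was 99.8-fold higher in Pla2g3+/+.

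Among genes measured on both arrays, the largest decreases included the lectins Reg3b and Reg3g and products of secretory cells, while Amy2a5, given below with other pancreatic and liver transcripts, was lower by a larger bound than any of them. Reg3b, an antimicrobial lectin, went from a signal of 281297 with vehicle to 347 after AOM, and its neighbor Reg3g, a lectin directed at Gram-positive bacteria, from 84498 to 116, which was 810.4-fold lower and 729-fold lower. Both started higher in the Pla2g3-/- vehicle pool than in the Pla2g3+/+ vehicle pool, where they stood at 28865 and 6149, and against the mean of both vehicle arrays the log2 ratios were -8.02 and -7.62 in place of -9.66 and -9.51. Retnlb, a goblet cell protein that acts on bacteria, was 281-fold lower (167251 to 595) and Nts, the hormone neurotensin, 378-fold lower (6253 to 16.5). Ang4, an antimicrobial ribonuclease of goblet and Paneth cells, was 228-fold lower, and all 5 angiogenin-family genes with a value were over 2-fold lower, with a summed signal of 406670.0 with vehicle and 1449 after AOM. The family members are near-identical and may share signal on the array. Slc51a, a subunit of the bile acid exporter, was 198-fold lower, and Gzma, a granule protease of killer lymphocytes, 90.9-fold lower. In Pla2g3+/+ Reg3b was 10.4-fold lower, Retnlb 154-fold lower, Nts 12.8-fold lower, Ang4 28.5-fold lower, Slc51a at least 800.2-fold lower and Gzma 9.82-fold lower, and Reg3g was within 2-fold (-0.84 log2).

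The upstream sequences of Reg3b and Reg3g are shown because these neighbors on chromosome 6 were the genes with the largest measured decreases. In the 150 bases before each start (RefSeq, GRCm38.p6) the capitals mark the TATA box letters TATAAA, which 8.89% of 27025 genes hold in this window on either strand. The windows, 78370735 to 78370884 on the plus strand and 78468875 to 78469024 on the minus strand, share a run of 20 identical bases. The motifs here and below were chosen after the values were seen, and a match describes letters only.
Reg3b: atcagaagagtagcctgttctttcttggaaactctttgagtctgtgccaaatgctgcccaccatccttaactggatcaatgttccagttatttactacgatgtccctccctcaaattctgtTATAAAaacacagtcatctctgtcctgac
Reg3g: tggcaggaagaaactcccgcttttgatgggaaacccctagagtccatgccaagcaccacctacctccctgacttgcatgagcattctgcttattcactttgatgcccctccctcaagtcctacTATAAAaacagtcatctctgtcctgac

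In Pla2g3-/- 9.64% of all genes were over 2-fold higher and 15.1% lower, and its list counts below are to be read against these shares. Over 61 gene lists that cover cell types and pathways, 58 had at least 5 genes with a value. Their median log2 ratio was past 2-fold lower for 14 lists and past 2-fold higher for none, with 36 medians below 0 and 22 above. Lists of pancreas, liver, B cells, fat, enteroendocrine cells, T cells, tuft cells, goblet cells and respiration lay at the low end, and lists of the circadian clock, collagen, squamous epithelium and skeletal muscle at the high end. In Pla2g3+/+, 16 medians were past 2-fold lower and 13 past 2-fold higher. The sign of the medians past 2-fold was the same under the 5 other scalings tried, but without scaling 21 lists of smaller median, up to 0.78 in size, turned to the other sign. The size of these medians depended on the processing: 10 of the 14 came within 2-fold after normexp and quantile normalization (goblet, deep crypt secretory, tuft and Paneth cells, antimicrobial lectins, B cells, plasma cells, T cells, MHC class II and oxidative phosphorylation), and quantile normalization alone brought 5 of them within it (goblet, deep crypt secretory and Paneth cells, antimicrobial lectins and oxidative phosphorylation).

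**Figure D2:**
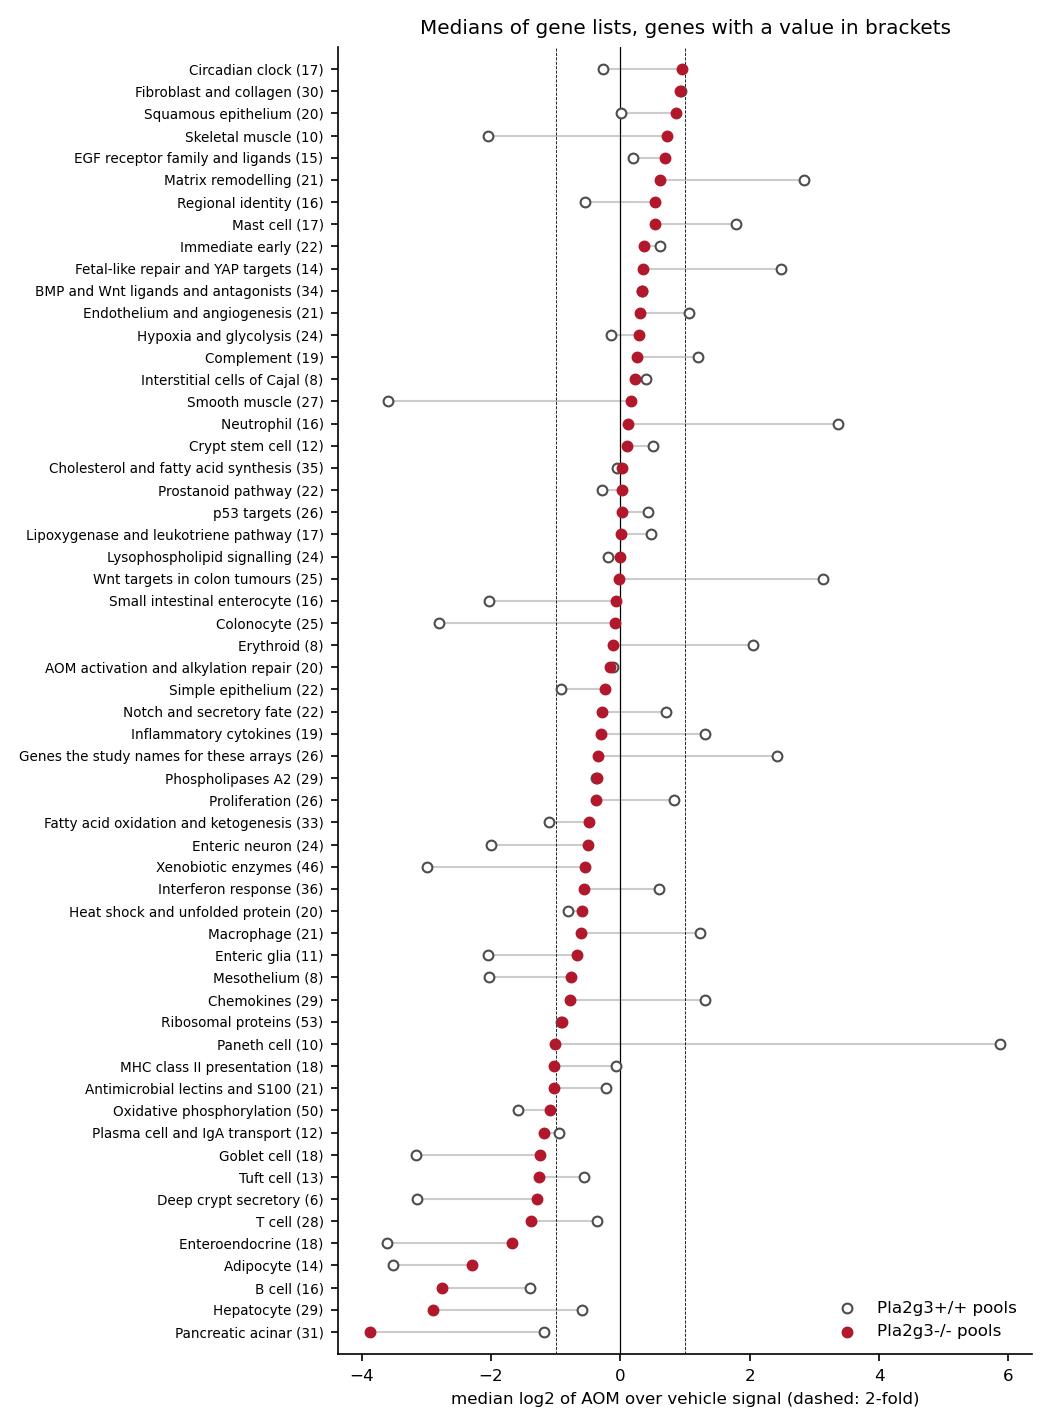
Median log2 ratio of AOM over vehicle for each of 58 gene lists, with filled red points for Pla2g3-/- and open points for Pla2g3+/+, the number of genes with a value in brackets and dashed lines at 2-fold. In Pla2g3-/- 14 lists lie past the lower line and none past the upper one, whereas in Pla2g3+/+ 16 and 13 do.

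Digestive enzymes of the exocrine pancreas were carried by the Pla2g3-/- vehicle pool and were mostly lower after AOM. Of the 31 acinar genes with a value, 26 were over 2-fold lower and 1 higher, against 15.1% and 9.64% of all genes, with a median log2 ratio of -3.88. Amy2a5, pancreatic amylase, had a signal of 34705 with vehicle and was not above background after AOM, at least 2372-fold lower, and it was not above background on either Pla2g3+/+ array. Amy1, an amylase of salivary gland and liver that is nearly identical to it, was 107-fold lower. The trypsin genes Try5 and Try4 (3682 and 3289 with vehicle), the carboxypeptidase Cpa1 (1596), the lipase Pnlip (1199) and the elastase Cela3b (1194) were not above background after AOM. Cpb1, carboxypeptidase B, went from 1911 to 46.1, and Ctrb1, chymotrypsinogen, from 2208 to 55.7. In the Pla2g3+/+ vehicle pool, Cpa1 stood at 111, Cpb1 at 44.3 and Ctrb1 at 86.5. Of 33 acinar genes on the array, 23 were above background in the Pla2g3+/+ vehicle pool, 31 in the Pla2g3-/- vehicle pool, and 19 and 19 after AOM. List members with high signals in other pools too were a different matter: Sycn, a zymogen granule protein, had 153578 with vehicle and 163360.0 after AOM, and Clps, colipase, 10185 and 993, against 15336 in the Pla2g3+/+ vehicle pool.

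Transcripts of hepatocytes followed the same pattern. Of 29 genes with a value, 22 were over 2-fold lower and none higher, with a median of -2.89 and a summed signal of 40405 with vehicle and 11544 after AOM. The major urinary proteins, pheromone carriers made in male liver, were over 2-fold lower for all 10 family members, from a summed 19195 to 88.6, and their sum in the Pla2g3+/+ vehicle pool was 278. Mup1 alone had 2658 with vehicle, 45.9 in the Pla2g3+/+ vehicle pool, and was not above background after AOM. These genes are near-identical, so their probes share signal. Alb, serum albumin, had 666 with vehicle and was not above background after AOM, whereas in Pla2g3+/+ it went from 25.1 to 2125. Serpina1a, the elastase inhibitor alpha-1-antitrypsin, was 9.02-fold lower (2934 to 325, against 207 in the Pla2g3+/+ vehicle pool) and Cyp2e1, a cytochrome that activates AOM, 7.44-fold lower. Hepatocyte genes above background numbered 23 in the Pla2g3+/+ vehicle pool, 29 in the Pla2g3-/- vehicle pool, and 20 and 18 after AOM. When the AOM array was set against the mean of both vehicle arrays instead, 1558 genes were over 2-fold higher and 2327 lower, and the medians of the acinar and hepatocyte lists moved to -1.87 and -1.25. The part that pancreas or liver tissue in the vehicle pool has in other decreases was not tested.

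Upstream sequences of 3 pancreatic and 2 hepatic genes are shown as examples of the transcripts that set the Pla2g3-/- vehicle pool apart. Capitals mark TATAAA in Amy2a5 (chromosome 3, 113258700 to 113258849, minus strand), the E-box letters CACCTG or, read on the other strand, CAGGTG in Cela3b (chromosome 4, 137430521 to 137430670, minus strand) and Cpb1 (chromosome 3, 20275734 to 20275883, minus strand), and the HNF1 core letters GTTAAT or ATTAAC in Alb (chromosome 5, 90460720 to 90460869, plus strand) and Fgb, fibrinogen beta (chromosome 3, 83049864 to 83050013, minus strand). CACCTG stood in the windows of 12 of 29 acinar genes and 12.2% of all genes, and GTTAAT in 9 of 23 hepatocyte genes, of which 5 are copies of Serpina1, and 4.34% of all genes. The motifs do not overlap in these windows.
Amy2a5: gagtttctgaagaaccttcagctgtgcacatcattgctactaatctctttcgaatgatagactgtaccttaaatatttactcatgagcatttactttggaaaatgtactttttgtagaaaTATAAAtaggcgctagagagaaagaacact
Cela3b: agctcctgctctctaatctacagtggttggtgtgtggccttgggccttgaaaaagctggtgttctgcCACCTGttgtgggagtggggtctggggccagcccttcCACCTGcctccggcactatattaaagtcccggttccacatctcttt
Cpb1: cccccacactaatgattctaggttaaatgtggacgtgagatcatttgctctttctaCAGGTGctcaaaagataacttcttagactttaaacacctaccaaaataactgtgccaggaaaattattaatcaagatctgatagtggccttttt
Alb: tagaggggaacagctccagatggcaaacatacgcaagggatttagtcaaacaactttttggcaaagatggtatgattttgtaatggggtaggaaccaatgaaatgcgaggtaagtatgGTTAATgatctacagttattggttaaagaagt
Fgb: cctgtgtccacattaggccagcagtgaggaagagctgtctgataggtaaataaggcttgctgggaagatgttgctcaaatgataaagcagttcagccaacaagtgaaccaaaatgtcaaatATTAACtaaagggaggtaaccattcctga

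Fat cell genes were lower after AOM. Of 14 adipocyte genes with a value, 11 were over 2-fold lower and none higher, with a median of -2.30. Adipoq, the fat hormone adiponectin, went from 2523 to 211, Cfd, the complement factor adipsin, from 19169 to 1995, and Fabp4, a lipid-binding protein, from 12314 to 2681. Plin4, a coat protein of lipid droplets, stood at 1632 and 2376. The summed signal of the list was 38311 in the Pla2g3+/+ and 63255 in the Pla2g3-/- vehicle pool, and 7155 and 19276 after AOM, so the vehicle pools differed in fat transcripts as well.

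Lymphocyte genes formed the next block of decreases. Of 16 B cell genes with a value, 11 were over 2-fold lower and none higher (median -2.76, or -0.999 after normexp and quantile normalization). Cd79b, a subunit of the B cell receptor, went from 1312 to 75.4, and Ms4a1, which encodes CD20, had 419.9 with vehicle and was not above background after AOM. Jchain, the chain that joins IgA dimers, was 13.4-fold lower (64519.9 to 4812). Pigr, the epithelial receptor that carries IgA to the lumen, was 2.10-fold higher on its brightest probe (25710.4 to 54053). The other Pigr probe was within 2-fold (15215 to 18226). Of 28 T cell genes with a value, 20 were over 2-fold lower and none higher (median -1.38, or -0.61 after normexp and quantile normalization, within 2-fold). Ccl5, a chemokine of killer lymphocytes, was 42.5-fold lower (8351 to 196) and Gzmb, granzyme B, 26.5-fold lower. Cd3d, a subunit of the T cell receptor complex, went from 673 to 63.0 and Cd8a, a co-receptor of cytotoxic T cells, was at least 6.00-fold lower, whereas Cd4, the helper cell co-receptor (-0.62 log2), and Foxp3, the regulatory T cell factor (0.01 log2), were within 2-fold. The summed T cell signal was 29604 and 30156 in the Pla2g3+/+ and Pla2g3-/- vehicle pools and 10479 and 6269.7 after AOM. In Pla2g3+/+ 9 of 17 B cell genes were over 2-fold lower and none higher (median -1.40), and the T cell list had 8 members higher and 8 lower (median -0.36). Cd79b was 2.84-fold lower and Ccl5 18.5-fold lower there.

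Antigen presentation and interferon genes were lower in part. Of 18 genes of MHC class II presentation, 11 were over 2-fold lower and none higher (median -1.03, or -0.57 after normexp and quantile normalization). Cd74, the invariant chain, was at -0.65 log2, and of the class II chains H2-Ab1 was at -0.79, H2-Eb1 at -1.03, H2-DMa at -1.28 and H2-Oa at -3.22. Of 36 interferon response genes, 11 were over 2-fold lower and none higher (median -0.56). Cxcl9, a T cell-attracting chemokine induced by interferon gamma, went from 342 to 21.5 and was 12.7-fold higher in Pla2g3+/+ (289.7 to 3679). Isg15, a ubiquitin-like modifier induced by interferon, went from 15061 to 1594. Among 29 chemokines, 12 were lower and 2 higher (median -0.78), among them Ccl5 and Cxcl9, Ccl4, an attractant of myeloid cells and lymphocytes (at least 16.5-fold lower), and Ccl6 (57374 to 10044).

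Secretory epithelial cells were affected unevenly. Of 18 goblet cell genes with a value, 11 were over 2-fold lower and 1 higher (median -1.25). Spdef, a transcription factor of goblet cell maturation, was 5.40-fold lower (25763 to 4769), the secreted peptide Spink4 5.13-fold lower, and Agr2, a disulfide isomerase needed for mucin folding, 4.13-fold lower. Itln1, a carbohydrate-binding lectin, went from 14529 to 403, against 20601 and 18771 in Pla2g3+/+. Muc2, the main gel-forming mucin, stayed at 44269 and 33968, and Fcgbp, a mucus protein, at 80483 and 72827. In Pla2g3+/+ Muc2 was 7.57-fold lower and Fcgbp 8.93-fold lower. Hormone genes of enteroendocrine cells were among the larger decreases, with 10 of 18 list members over 2-fold lower and 1 higher (median -1.68). Sct, secretin, went from 29468 to 1438, Sst, somatostatin, from 1855 to 126, and Insl5, a hormone of distal L cells, from 9610.4 to 1478. The granule proteins Chga (-0.97 log2) and Chgb (-0.39 log2), which these cells share, were within 2-fold. Tuft cells, chemosensory cells of the epithelium, showed the same direction, with Rgs13, a regulator of G-protein signaling, at 940.4 and 46.6, and 7 of 13 members lower.

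Absorptive colonocyte genes moved in both directions. Of 25 genes with a value, 7 were over 2-fold lower and 4 higher, against 15.1% and 9.64% of all genes (median -0.08). Tmigd1, an adhesion molecule of mature enterocytes, went from 6475 to 183, and Guca2a, the peptide guanylin, and Car1, a carbonic anhydrase, were 2.64-fold lower and 2.80-fold lower. Higher signals were found for Slc26a3, the chloride-bicarbonate exchanger (10205 to 26824), and for the sodium channel subunits Scnn1a (2.56-fold higher) and Scnn1b (3.97-fold higher). In Pla2g3+/+, 21 colonocyte genes were lower and none higher (median -2.80), and Slc26a3 went from 9973 to 139.6 and the water channel Aqp8 from 93405 to 358, against 99396 and 54073 in Pla2g3-/-. Fabp2, an intestinal fatty acid-binding protein, was 25.5-fold lower, and Apob, the structural protein of chylomicrons, 5.32-fold higher. General epithelial genes changed less, with Epcam, an adhesion molecule of all simple epithelia, at 7647 and 8160.4, Krt8 at -0.03 log2, and Cdh1, E-cadherin, 2.94-fold higher, but Cdx2, a transcription factor of intestinal identity, was 5.61-fold lower (12336 to 2200.4). Enzymes that process foreign compounds were lower for 17 and higher for 3 of 46 genes (median -0.55, against -2.99 in Pla2g3+/+). The glucuronosyltransferase Ugt2b5 had 1564 with vehicle and was not above background after AOM, and its near-identical relatives cannot be told from it with certainty.

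Squamous epithelium genes were higher in part, and several gave different values on different probes. Of 20 genes with a value, 9 were over 2-fold higher and 3 lower, among them the desmosomal Dsg3, whose probes ran from -2.75 to 2.07 log2 (median 0.86), and the summed signal went from 8328 to 30639.9, most of it Krt5. With the mean over the probes of a gene in place of the brightest, the median was 1.34, and with the dimmest probe 1.63. Besides Krt5, Krt14 and Krt15, the increases included Krt6a, a keratin of activated keratinocytes (199 after AOM), Col17a1, a hemidesmosome collagen (588), and Lypd3, a surface protein of upper layers (318), none of them above background with vehicle, and Lor, the cornified envelope protein loricrin (142 to 646). Trp63, the transcription factor that specifies basal cells, was 3487 with vehicle and 3992 after AOM on its brightest probe, but its other probes were not above background with vehicle and had 645 and 329 after AOM, bounds of 4.83 and 3.85 log2. Krt13, a keratin of non-cornified squamous layers, had 1094 and 1241 on the brightest probe, and on the other it was not above background with vehicle and had 900.3 after AOM, a bound of 5.31 log2. In the Pla2g3+/+ AOM pool these dim Trp63 probes were not above background, and the dim Krt13 probe had 386. Krt1, Ivl and Sprr3, markers of differentiated squamous layers, were not above background on either array. The 14 to 18 list members above background per array were 14 and 15 in the Pla2g3+/+ and Pla2g3-/- vehicle pools and 16 and 18 after AOM. In Pla2g3+/+ the list had 7 members higher and 4 lower, with Krt15 at 5459 and Krt14 at 1555 after AOM. The part of squamous or glandular tissue in these increases was not tested.

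**Figure D3:**
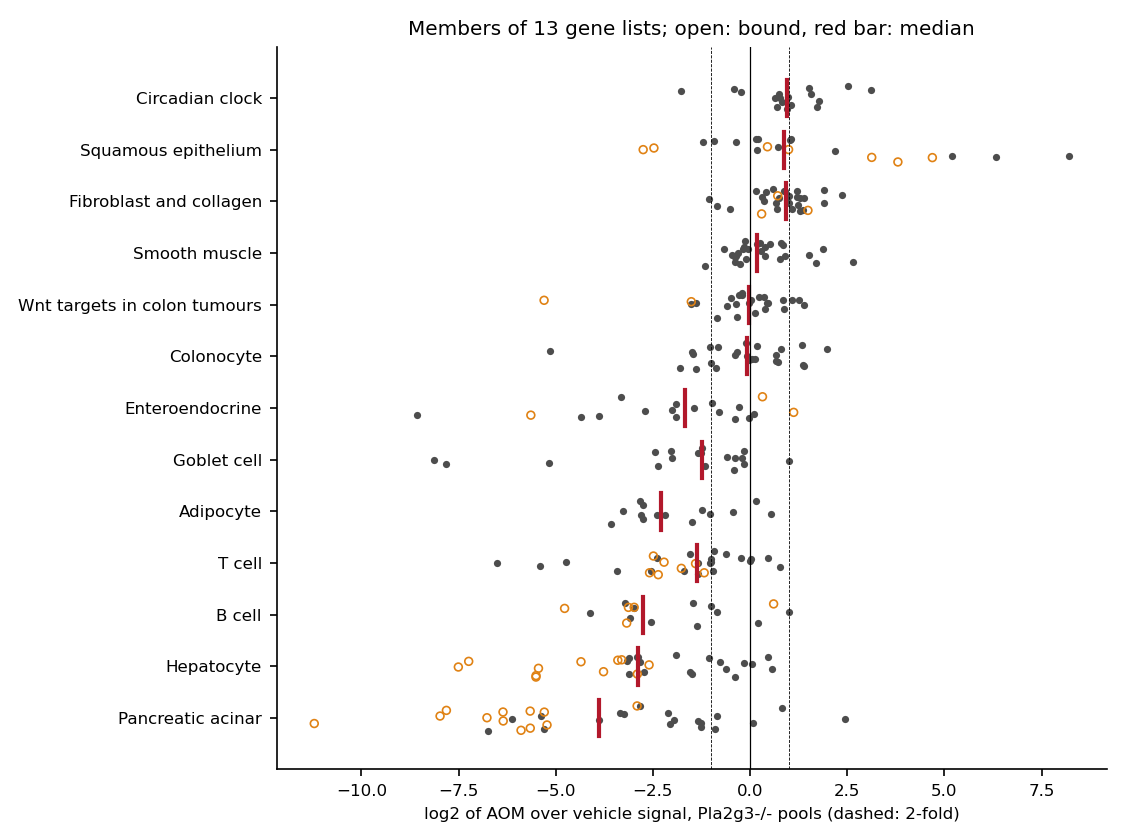
Log2 ratio of AOM over vehicle in Pla2g3-/- for each gene of 13 lists, with open points for bounds and a red bar at the median of the list. Acinar, hepatocyte, B cell and T cell genes lie mostly below the 2-fold line, whereas squamous genes spread from over 2-fold lower to 297-fold higher for Krt5, on the brightest probe of each gene, and smooth muscle genes cluster near 0.

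Hox genes, transcription factors that mark position along the body axis, were examined after their values had been seen. In the HoxD cluster, the genes at the posterior end were higher, with Hoxd11 at 277 and 2904, Hoxd13 at 1013 and 6883, Hoxd10 at 134 and 665 and Hoxd12 at 169.9 and 723. Hoxd4 was lower, from 379 to 58.5. In the HoxB cluster, Hoxb6 (1828 to 490.1), Hoxb7 (1870.5 to 393) and Hoxb8 (583 to 118) were over 2-fold lower, whereas the posterior Hoxb13 went from 39173 to 63341, within 2-fold. Of 11 HoxA genes, 1 was over 2-fold lower and none higher. In Pla2g3+/+, Hoxd13 was 2.61-fold higher and Hoxd11 3.73-fold higher, and Hoxb7 7.02-fold lower. Isl1, a homeodomain factor of neurons and endocrine cells, was 5.56-fold higher. The level of the descending colon that each pool came from is not given in the sources used here.

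**Figure D4:**
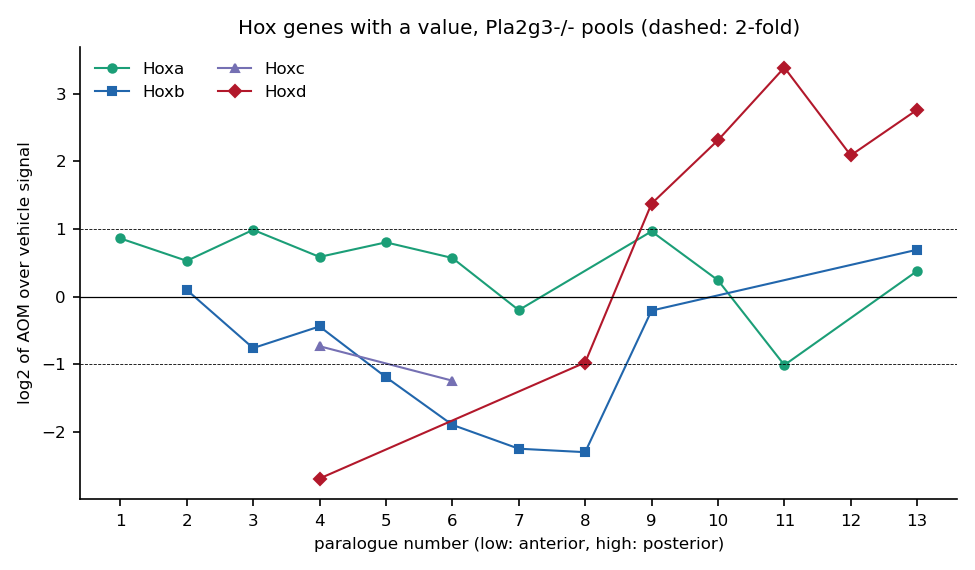
Log2 ratio of AOM over vehicle in Pla2g3-/- (y axis) against the paralogue number of each Hox gene (x axis, from anterior to posterior). The 4 clusters are drawn as 4 lines in 1 panel. HoxD genes of the posterior end lie above 2-fold, up to 3.39 for Hoxd11, and Hoxb5 to Hoxb8 lie below -1.

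Smooth muscle of the gut wall differed little between the Pla2g3-/- pools. Of 27 genes with a value, 4 were over 2-fold higher and 1 lower (median 0.17), and the summed signal was 835399 with vehicle and 814459 after AOM. Des, the muscle filament desmin, stood at 7167 and 6474, and Actg2, gamma smooth muscle actin, at 104409 and 100050.0, while Myh11, smooth muscle myosin, was 3.68-fold higher (5448 to 20066). In Pla2g3+/+ the same list had a median of -3.59, with a summed signal of 790802 and 74881 and Des at 7921 and 63.2. Muscle signal was thus near the vehicle level in the Pla2g3-/- AOM pool and far below it in the Pla2g3+/+ AOM pool, and its part in other values of the Pla2g3+/+ comparison was not tested. Of 8 pacemaker cell genes with a value, 2 were over 2-fold higher and none lower (median 0.23). The higher ones were Ano1, a chloride channel (3.44-fold higher), and Thbs4, thrombospondin 4 of muscle and tendon (4.43-fold higher). Kit and Etv1, other genes of that list, were within 2-fold (-0.70 and -0.26 log2). Striated muscle genes were present as well, with Tnnc2, fast troponin C, at 148 and 1413, and 4 of 10 members higher and 3 lower. Enteric neuron genes were lower for 6 of 24 (median -0.51), among them Uchl1, a neuronal ubiquitin hydrolase (2.68-fold lower), and Vip, vasoactive intestinal peptide, stood at 1535 and 1030.2.

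Connective tissue genes were higher, to a moderate degree. Of 30 fibroblast and collagen genes, 14 were over 2-fold higher and 1 lower (median 0.92). Fn1, fibronectin, went from 6182 to 31880.2, Col14a1, a fibril-associated collagen, from 432 to 1617, and Pi16, a marker of adventitial fibroblasts, from 921 to 3452. The other Col14a1 probe was within 2-fold (61.8 to 88.3). Col1a1, the main fibrillar collagen chain, was 1.87-fold higher against 12.0-fold higher in Pla2g3+/+, and Pi16 was 4.17-fold lower there. Sparc, a matrix glycoprotein, was 2.06-fold lower on its brightest probe and 1.57-fold lower on the other. Among 21 matrix-remodeling genes, 5 were higher and 1 lower. The protease Adamts1 was 3.71-fold higher, while the collagenase Mmp13 (77.5 to 53.4) and the stromelysin Mmp10 (31.3 to 24.2) were within 2-fold. In Pla2g3+/+, Mmp13 reached 9488 and Mmp10 18149.5 after AOM.

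Targets of the Wnt pathway that mark colon tumors did not move as a group in Pla2g3-/-. Of 25 genes with a value, 3 were over 2-fold higher and 4 lower (median -0.02), and their summed signal was 43699.8 with vehicle and 42824 after AOM. Axin2, a feedback inhibitor of the pathway, went from 159.7 to 204, Lgr5, the stem cell receptor, from 178 to 62.8, and Wif1, a secreted inhibitor, from 162 to 61.8. Mmp7, the protease matrilysin, had 576 with vehicle and was not above background after AOM. In Pla2g3+/+, 24 of 27 targets were over 2-fold higher and none lower (median 3.13), with Axin2 from 133 to 1590.2, Wif1 from 252 to 19530.2 and Mmp7 from 487 to 17355. Members over 2-fold higher in Pla2g3-/- were Wnt10a, a ligand (113 to 298, and not above background in the Pla2g3+/+ vehicle pool), Dkk2, a secreted modulator (2.38-fold higher), and the receptor Tnfrsf19 (2.11-fold higher). The dimmer Tnfrsf19 probe, not above background with vehicle, had a bound of 0.36 log2. Proliferation genes were lower for 1 of 26 and higher for none, with a median of -0.37 that turned above 0 without scaling. Mki67, the proliferation marker Ki-67, went from 4325 to 8629.7, just under 2-fold, and Birc5, the mitotic protein survivin, from 15978 to 7339. The other Mki67 probe was past 2-fold (3242 to 7392, 2.28-fold higher), and the other Birc5 probes were 1.96-fold and 2.14-fold lower. Olfm4, which marks crypt base cells, was not above background with vehicle or on either Pla2g3+/+ array and had 352 after AOM.

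Genes of acute inflammation were mostly within 2-fold or lower, apart from a few neutrophil proteins. S100a8 and S100a9, subunits of the neutrophil protein calprotectin, went from 60.2 to 125 and from 155 to 387. In Pla2g3+/+ they reached 10039.5 and 35747 after AOM. Of 16 neutrophil genes, 5 were over 2-fold higher and 4 lower (median 0.12). Saa3, an acute-phase protein, went from 1796 to 48.8, against 975 to 8813 in Pla2g3+/+. Of 19 cytokines, 5 were lower and 3 higher. Il1b, interleukin 1 beta, stood at 96.7 and 79.0, Tnf was 2.53-fold lower, and Il22, a cytokine that induces epithelial lectins such as Reg3g, went from 71.2 to a signal not above background. Il33, an alarmin of stroma and epithelium, was 3.03-fold higher and Il1rn, the interleukin 1 receptor antagonist, 3.48-fold higher. Macrophage genes were lower for 6 and higher for 2 of 21 (median -0.61), with Cx3cr1, the fractalkine receptor of resident macrophages, 3.22-fold lower and Retnla, a product of alternatively activated macrophages, 4.50-fold higher (1653 to 7444). Arg1 and Chil3, other products of such macrophages, were within 2-fold (-0.61 and -0.27 log2). Mast cell genes moved in both directions, with 8 of 17 higher and 6 lower. Mcpt1 and Mcpt2, proteases of mucosal mast cells, were 3.13-fold lower and 2.59-fold lower, while Mcpt4, Cma1 and Cpa3, proteases of connective tissue mast cells, were 2.43-fold higher, 4.58-fold higher and at least 5.59-fold higher. In Pla2g3+/+ Mcpt1, Mcpt2 and Mcpt4 were 132-fold higher, 123-fold higher and 68.5-fold higher.

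Nuclear genes of the respiratory chain were nearly all below 0. Of 50 such genes, 32 were over 2-fold lower, none higher, and 48 below 0 (median -1.09, or -0.46 after normexp and quantile normalization and -0.45 after quantile normalization, within 2-fold), with Ndufa4, a subunit of the terminal oxidase, from 35646 to 8644. Ribosomal protein genes had 13 of 53 over 2-fold lower and 53 below 0 (median -0.90, or -0.16 after normexp and quantile normalization). Both medians were below 0 in Pla2g3+/+ as well (-1.58 and -0.92). For fatty acid oxidation, 9 of 33 genes were lower and 2 higher. Hif1a, the oxygen-regulated transcription factor, was 5.01-fold higher (620.0 to 3105), Vegfa, its angiogenic target, 2.20-fold higher, and the glycolytic enzyme gene Gapdh stood at 114397 and 116924. The dimmer Vegfa probe was 1.80-fold higher.

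Clock genes were higher in the AOM pool. Of 17 genes with a value, 7 were over 2-fold higher and 1 lower (median 0.96, against -0.27 in Pla2g3+/+). Per2 and Per3, repressors of the core loop, went from 67.1 to 585 and from 59.6 to 343. Per1 and Cry2, repressors of the same loop, were 3.28-fold higher and 3.43-fold higher, and Ciart, a clock-controlled repressor, 2.96-fold higher. Nfil3, another repressor under clock control, went from 731 to 214, and Arntl and Clock, the activators, were within 2-fold (0.75 and 0.81 log2). In Pla2g3+/+ Per2 was 1.23-fold higher and Per3 1.21-fold higher. The hour at which the mice were killed is not given in the sources used here. Immediate early genes included Fos, which went from 1764 to 7052, and Fosb, 4.81-fold higher, transcription factors that respond to stimuli within minutes, with 3 of 22 higher and 1 lower. The window before Ciart (chromosome 3, 95882229 to 95882378, minus strand) is shown because it holds the clock E-box letters CACGTG 3 times, in capitals. Of the 15 clock genes in the table, 3 (20%) hold CACGTG in this window, as do 4.92% of all genes.
Ciart: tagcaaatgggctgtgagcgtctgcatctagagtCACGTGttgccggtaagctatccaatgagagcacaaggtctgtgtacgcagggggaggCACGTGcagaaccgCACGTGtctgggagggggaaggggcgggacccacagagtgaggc

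Lists of growth factor pathways held genes that moved in both directions, where 9.64% of all genes were over 2-fold higher and 15.1% lower. Among 15 EGF family genes, 5 were higher and 2 lower, with Egfr, the receptor, from 687 to 1916 (the log2 ratio of its probes ran from 0.15 to 1.48) and the ligand Areg 2.46-fold higher. The receptor genes Notch1, Notch2 and Notch3 were 2.42-fold higher, 2.94-fold higher and 3.51-fold higher, and the ligands Jag1 and Dll1 were 2.30-fold higher and 3.37-fold higher, although 7 of the 22 genes of that list were lower and 6 higher. Those lower included Spdef and Atoh1, factors of the secretory fate. Of 34 BMP and Wnt ligands and antagonists, 8 were higher and 2 lower, among them Sfrp2, a secreted Wnt modulator (3.19-fold higher), and Bmp7, a morphogen (2.49-fold lower). The 26 p53 targets held 1 gene higher and 2 lower. Cdkn1a, the cell cycle inhibitor p21, stood at 5534 and 7543, and Bax, a promoter of apoptosis, was 6.24-fold lower. A dimmer Cdkn1a probe was 2.21-fold higher (60.6 to 134). Among genes that process AOM or repair its lesions, Mgmt, which removes methyl groups from guanine, had signals of 1319.7 and 1179.

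Phospholipase A2 genes passed 2-fold about as often as all genes. Of 29 family members with a value, 4 were over 2-fold higher, Pla2g3 among them, and 5 lower (median -0.36), against 9.64% higher and 15.1% lower over all genes. Pla2g4f, a cytosolic enzyme, was 5.24-fold higher (143 to 751), and Pla2r1, a receptor that binds secreted phospholipases, 2.83-fold higher. Pla2g4c, a cytosolic enzyme without calcium dependence, had 243 with vehicle and was not above background after AOM. Pla2g10, a secreted enzyme of colon epithelium, stood at 28793 and 17526, Pla2g4a, the main cytosolic enzyme of arachidonate release, at 2765 and 2531, and Pla2g2a, a bactericidal secreted enzyme, at 339 and 187. In Pla2g3+/+, Pla2g2a went from 223 to 5136. The pancreatic enzyme gene Pla2g1b was 5.45-fold higher on its brighter probe (25.4 to 138), but its probes were past 2-fold in both directions.

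Downstream of these enzymes, Ptgs2, the inducible prostaglandin synthase, went from 85.3 to 116, and Ptgs1, its constitutive counterpart, from 2073 to 2726. Ptgs2 was 13.9-fold higher in Pla2g3+/+. The prostaglandin E2 receptors divided, with Ptger3 higher (157 to 495) and Ptger1 and Ptger2 lower (5.23-fold lower and 3.96-fold lower). The prostanoid transporters Abcc4 and Slco2a1 went from 302 to 1267 and from 2204 to 5704. Over the 22 genes of the pathway 4 were higher and 4 lower, against 9.64% and 15.1% of all genes. Dpep1, a dipeptidase that cleaves leukotriene D4, was 10.8-fold lower, with 3 of 17 leukotriene pathway genes higher and 2 lower. Enpp2, the lysophospholipase D that makes lysophosphatidic acid, went from 1259 to 2961 and in Pla2g3+/+ from 1182 to 291. Its receptors Lpar1, Lpar5 and Lpar6 were within 2-fold in Pla2g3-/- (0.32, -0.19 and 0.02 log2).

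The comparison of AOM with vehicle in Pla2g3+/+ mice shares no array with that in Pla2g3-/- mice. Of 16115 genes with a value in both, 1513 were over 2-fold higher in Pla2g3-/- and 2266 in Pla2g3+/+, and 616 were higher in both, which is 40.7% of the first and 27.2% of the second list, whereas 14.1% of all these genes were higher in Pla2g3+/+. For decreases, 2372 and 3629 genes were lower and 1302 were lower in both, or 54.9% and 35.9%, whereas 22.5% of all were lower in Pla2g3+/+. Another 193 genes were over 2-fold higher in Pla2g3-/- and over 2-fold lower in Pla2g3+/+, and 179 the reverse. Over 14791 genes measured on all arrays, the log2 ratios correlated with a Pearson's r of 0.41 and a Spearman's rho of 0.46, given as a description across genes, which are not independent and share their probe design. Decreases found in both genotypes included Retnlb, Ang4, Nts and Fabp2, and increases found in both included Krt15, Ltf, Fn1 and Hoxd13. Differences between the genotypes were not tested, since 1 array a group leaves no replicate.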

How the data were processed

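RNA pooled from the colons of 3 to 5 mice per group (27.7 ng) was hybridized to 4 one-color Whole Mouse Genome arrays, 1 for each of Pla2g3+/+ and Pla2g3-/- mice given vehicle or AOM, and groups were taken from the sample labels. The authors deposited the spot intensity from Agilent Feature Extraction 11.5.1.1, which per the file headers had its background subtracted and its spatial trend removed, with surrogate values for low spots. Arrays were not scaled to each other. They also deposited a table that is a ratio, with the linear intensity over the 75th percentile of that array. On every array 100% of values were equal to this within 0.1%, and the column medians were 0.0997 and 0.0970 in the vehicle pools of Pla2g3+/+ and Pla2g3-/-, and 0.101 and 0.0965 in the AOM pools.

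Control spots and outlier spots were left out, log2 intensities of repeated spots were averaged over 39429 probes, and the 75th percentile of the array was subtracted. That percentile was an intensity of 645.6 and 649.8 with vehicle and 1309 and 1169 after AOM for Pla2g3+/+ and Pla2g3-/-. A RefSeq table of GRCm38.p6, used for names and promoters, gave names by accession (27740 probes) or by symbol (3654), and 31394 probes matched 22384 genes, with the probe brightest over the 4 arrays standing for a gene. The array files give probe coordinates on mm9. Feature Extraction itself called spots well above background. With 1 array a group, 2-fold was used as a threshold of size, and no test was run, since precision is limited by the number of arrays.

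Named genes were the 12 largest measured changes and the 6 largest bounds in each direction, 3 genes of each list in each direction, the 3 brightest genes of each list, the 4 defining markers of each marker list, genes the study names for these arrays, and Pla2g3. Some of these genes are not reported here. Genes chosen after their values were seen were Abcg5, Aqp8, Arntl, Atoh1, Cd74, Cd8a, Cdkn1a, Cela3b, Ciart, Clock, Clps, Col7a1, Cpa1, Cpb1, Ctrb1, Cyp2f2, Des, Ffar2, Fgb, Insl5, Isx, Ivl, Jag1, Krt1, Lama3, Lgals7, Lor, Lpar1, Lpar5, Lypd3, Mgmt, Mmp10, Mptx1, Notch1, Per1, Pla2g2a, Pla2g4a, Pnlip, Saa3, Serpina1a, Slc51b, Sprr3, Sst, Trim29, Vip, Wif1 and the Hox genes outside the regional list. The comparison and the lists were chosen with earlier results of these data known. Ratios, bounds and calls past 2-fold were tested on simulated data. Alternatives were other scalings, normexp background correction with an offset of 50 (limma 3.58.1 in R 4.3.3), other filters on dim probes, other probes for a gene, thresholds of 1.5-fold and 4-fold and the deposited table. The mean of both vehicle arrays as the reference and the omission of acinar and hepatocyte genes were added after seeing the data. The software was Python 3.11.15, pandas 2.3.3, numpy 2.4.6 and matplotlib 3.10.9.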

Additional observations from a re-analysis of the deposited data

Results flagged for a closer look

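Genes were picked out where the AOM over vehicle ratio was past 2-fold in opposite directions in the Pla2g3-/- and the Pla2g3+/+ pools. There were 193 genes higher in Pla2g3-/- and lower in Pla2g3+/+, and 179 genes the other way. Each side is 1 array over 1 array, so the difference between the genotypes was not tested for any of them. Values below are log2 ratios, first for Pla2g3-/- and then for Pla2g3+/+.

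Single genes of muscle and connective tissue that were higher in Pla2g3-/- and lower in Pla2g3+/+ were picked for this opposition. The medians of the muscle and fibroblast lists did not pass 2-fold in opposite directions. Smooth muscle had 4 of 27 genes higher in Pla2g3-/- and 23 of 27 lower in Pla2g3+/+ (medians 0.17 and -3.59). Skeletal muscle medians were 0.72 and -2.05, and fibroblast and collagen medians 0.92 and 0.94. The single genes were Myh11 at 1.88 and -4.69, Thbs4 at 2.15 and -1.71, Tnnc2 at 3.26 and -3.16, and Pi16 at 1.91 and -2.06. Retnla showed the same opposition at 2.17 and -8.14, Ptger3 at 1.65 and -4.09, and Enpp2 at 1.23 and -2.02. The summed smooth muscle signal was lower in the Pla2g3+/+ AOM pool, as given above. The sperm protein genes Spaca4 and Zan were at 4.41 and -1.32 and at 3.46 and -2.51, and Sh3bp1, whose probes differ, at 3.74 and -1.38. Epithelial genes of this kind were Slc26a3 at 1.39 and -6.16, Scnn1a at 1.36 and -1.87, and Notch1 at 1.28 and -1.43. So were Krt5 at 8.21 and -1.08 and Cyp2f2 at 3.30 and -5.02. On the brightest probe, Mid1 was at 6.00 and -1.04, and Pigr at 1.07 and -1.27. The other Pigr probe was at 0.26 and -3.04. Pla2g3 itself was 1.09 and -1.19 on its brightest probe.

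Other genes, picked in the same way, were lower in Pla2g3-/- and higher in Pla2g3+/+, although the Wnt target list as a whole had 4 of 25 lower in Pla2g3-/-. Among Wnt targets, Lgr5 was at -1.51 and 3.15, Wif1 at -1.40 and 6.28, and Mmp7 at -5.30 and 5.16. Bmp7 was at -1.31 and 3.32. Mucosal mast cell proteases followed, with Mcpt1 at -1.65 and 7.04 and Mcpt2 at -1.37 and 6.95. Immune genes were Cxcl9 at -3.99 and 3.67, Ccl4 at -4.05 and 3.56, Tnf at -1.34 and 2.35, Cx3cr1 at -1.69 and 1.25, and Saa3 at -5.20 and 3.18. The liver genes Alb and Serpina1a were at -5.51 and 6.40 and at -3.17 and 1.09. The Paneth cell list, over 10 and 13 genes with a value, had medians of -1.01 and 5.88, but the first was within 2-fold under 7 alternatives, such as -0.25 against the mean of both vehicle arrays and -0.69 after normexp and quantile normalization. It has defensin genes among its members that are near-identical and may share signal.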

How the results depend on the processing

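Over 12 alternatives, 636 of 696 list medians kept their direction and their side of 2-fold, 35 dropped within 2-fold, 25 passed it and none past 2-fold reversed. Of 2455 values of 208 named genes, 2349 kept direction and side, 72 dropped within 2-fold, 30 passed it and 4 reversed with another probe rule: the dimmest probe was at -1.31 for Pla2g1b, -0.54 for Sh3bp1 and 1.06 for Dsg3, and the mean over probes at 0.13 for Dsg3. Of 46 named genes with values on several probes, 15 had probes on different sides of 2-fold. In Pla2g3-/- the 1593 genes higher and 2498 lower became 6399 and 626 with no scaling, 907 and 865 after normexp and quantile normalization, 3413 and 4713 at 1.5-fold, and 229 and 510 at 4-fold. In Pla2g3+/+ the 2616 higher became 7755 with no scaling, 4223 at 1.5-fold and 862 at 4-fold, and the 3874 lower became 1232 with no scaling, 1687 after normexp and quantile normalization, 6110 at 1.5-fold and 1251 at 4-fold. The 14 lists past 2-fold lower became 9 after quantile normalization, 4 with no scaling and 4 after normexp and quantile normalization, and lists past 2-fold higher, none as reported, became 1 after quantile normalization, 16 with no scaling, 3 after scaling over detected probes, 1 with the other background call, 1 with the mean and 2 with the dimmest of the probes, and 1 against the mean of both vehicle arrays. No scaling raised the median of all genes by 0.84 on the log2 scale, by its construction, and after normexp and quantile normalization, which change 2 steps at once, 107 of 208 named ratios moved by over 1.5-fold. Other causes were not tested. Without the acinar and hepatocyte genes, 1592 genes were higher and 2450 lower. Only members of those lists were left out. Other pancreatic or liver transcripts, such as Mup genes outside the hepatocyte list, stayed in these counts, so they do not measure the part of such tissue. Against the mean of both vehicle arrays, 4 more named genes passed 2-fold in the direction they had (Chga, Col1a1, H2-Ab1 and Mki67) and 3 no longer did (Birc5, Sparc and Vegfa). Leaving out an array removes the comparison. No paired analysis was possible because each group has 1 array. No value was given to 5865 genes in Pla2g3-/-. They were above background on neither array, or on 1 with a signal not above the level set for the other. Signal over background limits what can be said of them.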

Other observations

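Among genes in none of the lists, most of them chosen after their values were seen, several of stratified epithelium and its basement membrane were higher in the Pla2g3-/- AOM pool. Lgals7, a galectin of stratified epithelium, and Serpinb11, a serpin whose function is not well known, were not above background with vehicle and had signals of 505 and 779.9 after AOM. Col7a1, the anchoring fibril collagen, went from 200.4 to 1311, Lama3, a chain of the epithelial laminin, from 278 to 1815, and Trim29, a gene of basal epithelium, from 49.5 to 469. In Pla2g3+/+ Col7a1 was 7.61-fold higher, Lama3 7.73-fold higher and Trim29 23.7-fold higher. Abcg5, a sterol exporter of intestine and liver, went from 620.4 to 5354, and Cyp2f2, a cytochrome best known from airway club cells, from 983 to 9695.

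Lower genes of the same kind included partners of genes given above. Slc51b, which forms the bile acid exporter with Slc51a, went from 6139 to 661. Ffar2, a receptor for short-chain fatty acids, was 17.5-fold lower, Isx, an intestinal homeodomain factor, 15.9-fold lower, and Mptx1, a pentraxin of the gut mucosa, 17.0-fold lower (249907 to 14742). In Pla2g3+/+ Slc51b was 96.4-fold lower, Ffar2 23.9-fold lower, Isx 5.19-fold lower and Mptx1 1397-fold lower, so these genes were lower in both genotypes.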
